A study of Mus musculus with 38 samples.

Results

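The genes described here are the chemokines, interleukins, their receptors and antagonists, and the Toll-like receptors of the mouse liver. They were taken from the deposited count table by symbol, as every gene whose name begins with Ccl, Cxcl, Ccr, Cxcr, Ackr or Ccrl and a number, with Cx3c, or with Il or Tlr and a number. This gave 49 of 10547 genes, made up of 12 CC chemokines, 8 CXC or CX3C chemokines, 7 chemokine receptors, 2 atypical receptors, 2 interleukins, 16 interleukin receptors or antagonists and 2 Toll-like receptors. They were followed over 38 tissue segments of 23 regions of interest (ROIs).

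Chemokines are small secreted or membrane-bound proteins that draw leukocytes along a gradient, and they act through receptors of the same family on the responding cell. CC chemokines mostly recruit monocytes, macrophages and lymphocytes, and many CXC chemokines recruit neutrophils. Interleukins and Toll-like receptors set off and restrain the same inflammatory programme, and in the injured bile duct they link the duct epithelium to the macrophages and neutrophils that gather around it.

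The study profiled formalin-fixed liver sections of C57BL/6 mice with the GeoMx Digital Spatial Profiler, in which ultraviolet light frees barcoded probes from a chosen part of the tissue for sequencing. In periportal ROIs, drawn around the ductular reaction, the PanCK+ segment holds the bile duct epithelium and the IBA1+ segment the macrophages, and in parenchymal ROIs only the IBA1+ segment was taken. Mice were WT, or carried a conditional allele of Trail deleted by a Cre in the Lyz2 gene, which acts in macrophages and also in other myeloid cells such as neutrophils (labelled Trail.mye). From an age of 6 to 8 weeks they received the control diet or the same feeding scheme with DDC, which causes bile duct injury, for 21 days in rounds of 5 days separated by chow rounds of 3 days, and were killed on day 22. WT mice carried neither the conditional allele nor the Cre, so a genotype difference here covers both.

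There were 3 WT control, 4 WT DDC, 4 Trail.mye control and 5 Trail.mye DDC segments for PanCK, 2, 4, 4 and 5 for periportal IBA1, and 1, 2, 2 and 2 for parenchymal IBA1. Segments are the replicates throughout. The labels name no animal, so several segments can come from the same mouse. Every p-value below treats segments, or ROIs where the ROI is a block, as independent. It is too small wherever these share a mouse. In mixed tissue, fewer cells of a type and less RNA per cell cannot be told apart.

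The labels of the segments held against their markers. All 10 cholangiocyte markers were higher in PanCK+ than in IBA1+ segments of the same ROI and all 10 macrophage markers were lower. Depth moved with the groups: total counts lay between 23481 and 29510 in WT control PanCK+ segments and between 172180 and 836971 in Trail.mye DDC ones. ROI 35 of the Trail.mye DDC group stood apart, with a negative probe (a probe with no target, the measure of background) at 43.1 counts in its PanCK+ and 27.8 in its IBA1+ segment, against at most 4.78 and 3.65 in the other periportal ROIs of the group. Only 5 and 13 of the 49 genes were over 2 times that probe there, so results that lean on ROI 35 are also given without it.

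Many of these genes were counted at or near the floor. A count of 1 is the lowest value in the table, and it made up 33.9% of the 1862 values of these genes against 27.2% of the values of all genes. A further 511 values were above 1 but not over 2 times the negative probe of their segment. The remaining 720 values, 38.7% against 47.8% for all genes, were over that limit and are called measured here. Cxcl12, the stromal chemokine read by CXCR4, was measured in 37 of 38 segments, Cxcl16, a transmembrane chemokine of epithelium and macrophages, in 32, and Il6st, the signalling chain shared by receptors of the IL-6 family, in 30. Ccl27a, a CC chemokine of epithelia, and Ccl6, a myeloid CC chemokine, were measured in 25 segments each, whereas Cxcl9, an interferon-induced attractant of T cells, was measured in 4. Altogether 10 of the 49 genes (20.4%, against 41.0% of all genes) were measured in at least 19 segments, none in all 38, and none was at the floor in all.

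**Figure D1:**
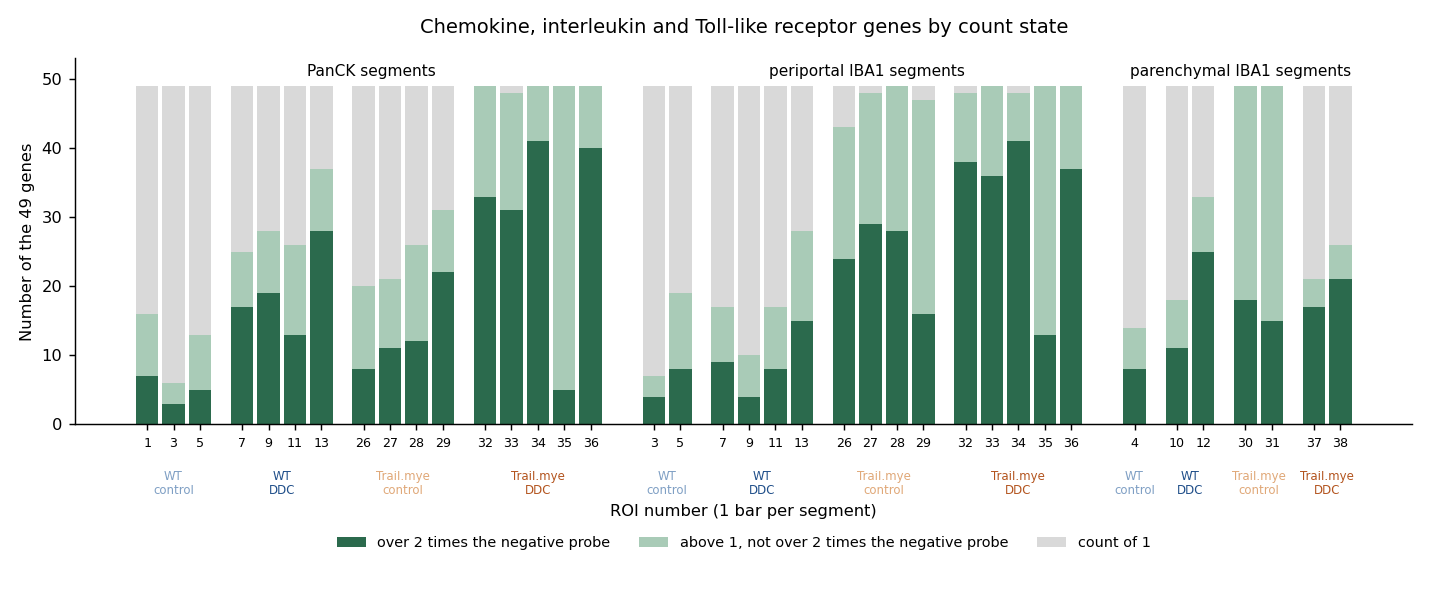
Each bar is 1 segment and shows how many of the 49 genes (vertical axis) were over 2 times the negative probe, above 1 but under that limit, or at a count of 1, with ROI numbers below and groups by genotype and diet. In the WT control PanCK+ segments 33 to 43 genes were at a count of 1 and in the Trail.mye DDC PanCK+ segments 0 or 1, while ROI 35 had only 5 genes measured in its PanCK+ segment.

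The floor sets what can be compared. In WT segments a single count was worth up to 5.25 Q3-normalized counts (the authors' scaling to a common 75th percentile per segment), whereas in Trail.mye DDC PanCK+ segments it was worth between 0.131 and 0.700. A WT value of 5.25 or less is therefore often 1 count, and differences below that level were not detectable there.

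PanCK+ and IBA1+ segments carried different chemokines. In the 15 ROIs with both segments, 23 of the 49 genes differed between PanCK+ and IBA1+ segments (edgeR quasi-likelihood test with the ROI as a block, Benjamini-Hochberg adjusted p under 0.05), of which 5 were higher and 18 lower in PanCK+. Over all genes 17.8% were called, 7.67% higher and 10.2% lower. The median log2 fold change of the 49 genes was -0.29 and that of all genes -0.03.

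Ccl2, the main attractant of monocytes, had the greatest excess in PanCK+ segments. In the PanCK+ segments of the DDC-fed mice its Q3-normalized count was 24.7, 54.6, 7.88 and 77.7 in WT and 60.6, 34.3, 67.6, 25.3 and 66.0 in Trail.mye, and in the IBA1+ segments of the same ROIs it was 5.25, 5.25, 10.5 and 3.50 in WT and 10.5, 12.9, 6.57, 6.94 and 6.002 in Trail.mye. The epithelial segment was higher in 8 of the 9 ROIs on DDC, the exception being ROI 11 with 3 counts against 2. On the control diet it was higher in 1 of 6 ROIs and lower in 2, and most values there were 1 or 2 counts. The log2 fold change over all 15 ROIs was 2.23 ± 0.22 (SE, edgeR adjusted p = 2.59e-13).

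Il1rn encodes the IL-1 receptor antagonist, a secreted protein that blocks IL-1 signalling. It was higher in PanCK+ than in IBA1+ segments in 9 of 9 ROIs on DDC and in 0 of 6 on the control diet. Of those 6 it was lower in 4 and at 1 count in both segments in 2. The WT ROIs on DDC read 22.2, 21.0, 23.6 and 29.4 Q3-normalized counts in PanCK+ against 5.25, 5.25, 5.25 and 3.50 in IBA1+, the latter all being 1 count. The log2 fold change was 1.36 ± 0.21 (SE, adjusted p = 2.31e-07).

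The neutrophil attractants showed the same order in the ROIs on DDC. Cxcl5, which acts through CXCR2, was higher in PanCK+ in 8 of these 9 ROIs, the remaining ROI being equal, with a log2 fold change over all ROIs of 1.74 ± 0.22 (SE, adjusted p = 1.30e-09). Cxcl1, which acts through the same receptor, was higher in 7 of 9 and lower in none, with 0.93 ± 0.19 (SE, adjusted p = 1.12e-04). On the control diet each of them was higher in 1 of 6 ROIs and lower in 3. Cxcl16 was higher in PanCK+ in 7 of 9 ROIs on DDC and in 4 of 6 on the control diet, with 0.76 ± 0.17 (SE, adjusted p = 5.02e-04). Whether the class difference itself differed between diets was not tested.

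The genes lower in the epithelium were led by Cxcl12. Its IBA1+ values ran from 26.3 to 91.5 Q3-normalized counts and its PanCK+ values in the same ROIs from 3.50 to 33.6, and it was lower in PanCK+ in 15 of 15 ROIs (log2 fold change -1.70 ± 0.18, SE, adjusted p = 2.07e-12). Ccl6 followed at -1.59 ± 0.18 (SE, adjusted p = 8.28e-11) and was lower in 13 ROIs. Among the receptors, Cx3cr1, which marks monocyte-derived macrophages, was lower in 12 ROIs, with -1.39 ± 0.17 (SE, adjusted p = 1.05e-09). In the ROIs on DDC the IBA1+ segment held more Cx3cr1 in 9 of 9.

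The other genes lower in PanCK+ fell into the same roles. Among ligands these were Ccl21a and Ccl19, which guide CCR7-bearing dendritic cells and T cells, Ccl9 and Ccl5, which draw macrophages and T cells, Cxcl14 and Cxcl9. Among receptors and antagonists they were Cxcr4, the receptor of CXCL12, Ccr1, a receptor for several CC chemokines on myeloid cells, both chains of the IL-10 receptor (Il10ra, Il10rb), Il6ra, the IL-6 binding chain, and Il18bp, the soluble inhibitor of IL-18. Il16, a cytokine made by lymphocytes, and Tlr13, an endosomal sensor of bacterial ribosomal RNA, completed the lower genes that are named here. Their log2 fold changes ran from -1.30 for Ccl21a to -0.51 for Il10rb. Il18bp was lower in 13 ROIs and higher in none, and Tlr13 was lower in 8 and higher in none. Others were mixed: Il10rb was lower in 6 and higher in 5, and Ccl21a was lower in 8 of 9 ROIs on DDC but higher in 4 of 6 on the control diet.

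**Figure D2:**
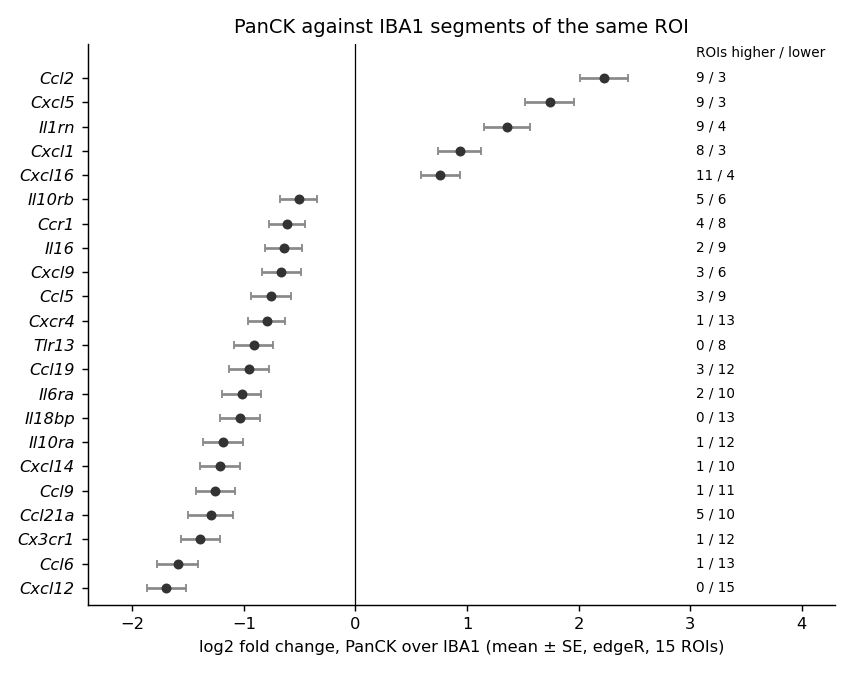
Points are log2 fold changes of PanCK+ over IBA1+ segments of the same ROI with their SE (edgeR, 15 ROIs) for the called genes that are named here, and the figures at the right count the ROIs in which PanCK+ was higher or lower. Ccl2 (2.23) leads the 5 genes higher in the epithelium, and Cxcl12 (-1.70), lower in 15 of 15 ROIs, is at the other end.

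Several named genes did not pass this test. Cx3cl1, the membrane-bound ligand of CX3CR1, had a log2 fold change of -0.08 ± 0.16 (SE, adjusted p = 0.832), Il6st had -0.02 ± 0.15 (SE, adjusted p = 0.970) and Ccl27a had -0.04 ± 0.17 (SE, adjusted p = 0.930). Il34, a ligand of the CSF1 receptor, Tlr3, the endosomal receptor for double-stranded RNA, and the atypical receptors Ackr1 and Ccrl2, which bind chemokines without classical signalling, had adjusted p-values between 0.244 and 0.711.

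Markers of other cells moved with this contrast. Of 10 fibroblast and stellate cell markers, 8 were lower and 1 (Rgs5) was higher in PanCK+ segments, and 4 of 5 Kupffer cell markers and 8 of 8 hepatocyte markers were lower. Their part in the differences above was not tested. The call count also rests on the deep libraries: with all segments scaled down to the smallest total, 4 of the 49 genes were called, Ccl2, Cxcl12, Cxcl16 and Ccl6. Without ROI 35 the calls of Ccr1 and Cxcl9 were lost.

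Genes that signal downstream of these ligands and receptors are read here against the 7.67% of all genes called higher and the 10.2% called lower. Of 33 genes of Toll-like receptor and IL-1 signalling, 6 were higher in PanCK+ and 5 lower. The higher ones were Cd14 (log2 fold change 1.30), the co-receptor that hands lipopolysaccharide to TLR4, the NF-kB family members Nfkb2 and Relb, the NF-kB inhibitor Nfkbia, the related regulator Nfkbiz (0.91) and Sigirr, a brake on this pathway. The lower ones were Unc93b1 (-1.70), the chaperone of the endosomal Toll-like receptors, Irf5, Irf7, Nlrp3 and Pycard. Of 18 genes of chemokine signalling or of the chemokine family outside the naming rule, 11 were lower in PanCK+ and none higher, among them Pf4 (-1.22) and the leukocyte genes Rac2 and Dock2. Of 18 genes of cytokine JAK-STAT signalling, Socs2 was higher (1.31), and Ptpn6 and Lifr were lower, counts near those shares.

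Promoter sequences are shown for some of the genes called between PanCK+ and IBA1+ segments, from both sides of that contrast, to let the letters before their start sites be read. RefSeq promoters (GRCm38.p6, 250 bases before to 50 after a start site) were found for 38 of the 49 genes, 51 promoters in all. None was found for Ccl2, Cxcl5 and Cxcl16, which were higher in PanCK+. The motifs searched on both strands were the NF-kB consensus, TGANTCA for AP-1 and GAGGAAGT for PU.1, a factor of the myeloid lineage. The NF-kB consensus was in 19.6% of these promoters and in 8.46% of all 32851 promoters of that length, and another form of it, searched first and fixing other letters, was in 15.7% and 1.63%. The AP-1 letters were in 19.6% and 7.81%, and the PU.1 letters in 1.96% and 3.20%. The promoters below are read 5′ to 3′ on the strand of the gene, with matches in capitals: Cxcl1 (chr5:90890995-90891294, plus strand) and Il1rn (chr2:24336610-24336909, plus strand, 1 of 3 start sites), higher in PanCK+, and Ccl9 (chr11:83578587-83578886, minus strand) and Ccl6 (chr11:83593038-83593337, minus strand), higher in IBA1+.
Cxcl1: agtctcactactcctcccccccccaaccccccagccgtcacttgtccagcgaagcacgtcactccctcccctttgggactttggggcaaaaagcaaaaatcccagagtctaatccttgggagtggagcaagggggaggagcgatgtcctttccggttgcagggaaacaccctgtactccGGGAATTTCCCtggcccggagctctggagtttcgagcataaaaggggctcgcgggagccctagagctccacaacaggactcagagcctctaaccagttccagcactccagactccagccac
Il1rn: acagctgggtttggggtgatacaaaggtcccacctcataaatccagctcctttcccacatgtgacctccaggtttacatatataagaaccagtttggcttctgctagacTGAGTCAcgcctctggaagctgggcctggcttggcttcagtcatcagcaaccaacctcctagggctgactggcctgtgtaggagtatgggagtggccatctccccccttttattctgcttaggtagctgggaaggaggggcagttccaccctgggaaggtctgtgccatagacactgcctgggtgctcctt
Ccl9: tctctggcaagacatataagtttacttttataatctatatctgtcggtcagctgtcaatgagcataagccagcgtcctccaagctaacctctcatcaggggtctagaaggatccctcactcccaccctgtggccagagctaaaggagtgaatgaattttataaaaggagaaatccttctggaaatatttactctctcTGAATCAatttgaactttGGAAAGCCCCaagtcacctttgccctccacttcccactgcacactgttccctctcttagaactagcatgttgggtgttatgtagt
Ccl6: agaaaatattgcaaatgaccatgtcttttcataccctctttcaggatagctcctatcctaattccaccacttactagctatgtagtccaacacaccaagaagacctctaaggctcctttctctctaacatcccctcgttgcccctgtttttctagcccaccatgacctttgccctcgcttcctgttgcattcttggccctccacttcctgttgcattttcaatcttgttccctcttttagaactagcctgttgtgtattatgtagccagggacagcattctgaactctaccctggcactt
The Cxcl1 window held the NF-kB consensus on both strands at overlapping places, 71 and 70 bases before the start site. The Il1rn window held the AP-1 letters 141 bases before it, and the windows of its other start sites held the other NF-kB form and none of the 3 motifs as searched here. Ccl9 held the AP-1 letters 53 bases and the NF-kB consensus 35 bases before its start site, and Ccl6, another gene of chromosome 11, held none of the 3 motifs in this window. A match is a description of letters only.

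In PanCK+ segments Ccl2 was higher on DDC in both genotypes. The comparison asks how the injury diet changes the RNA of these genes counted in the epithelial segments. In WT PanCK+ segments Ccl2 was at 1 count in each of the 3 control segments and at 10, 26, 3 and 37 counts in the 4 DDC segments (24.7, 54.6, 7.88 and 77.7 Q3-normalized counts), so the groups did not overlap and the fold was at least 2.94. In Trail.mye PanCK+ segments it was at 1, 1, 2 and 1 counts on the control diet (3.50, 2.63, 5.25 and 2.10 Q3-normalized counts) and at 60.6, 34.3, 67.6, 25.3 and 66.0 Q3-normalized counts on DDC. Every DDC segment was above every control segment, none of the control values was over 2 times the negative probe, and the log2 fold change, which is thus against background, was 3.90 ± 0.55 (SE, edgeR adjusted p = 1.55e-07). The adjusted p in WT was 0.00841.

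Of the 49 genes 1, Ccl2, was called for the diet in WT PanCK+ segments, where 0.910% of all genes were called and 0.493% were called higher. The call was lost without control ROI 1, without DDC ROI 13 or with the negative probe subtracted. Cxcl16 and Il1rn did not pass in this fit, but Cxcl16 was called under the 7 other processing settings tried, but not with the negative probe subtracted nor with most single segments left out, and Il1rn with TMM factors, total counts alone and limma. Cxcl16 had 10.5 in each of 3 control segments (3, 2 and 2 counts) and 24.7, 42.02, 39.4 and 77.7 Q3-normalized counts on DDC, with an adjusted p of 0.0519. Il1rn was at 1 count in all 3 control segments and at 9, 10, 9 and 14 counts on DDC, with an adjusted p of 0.0615. Neither pair of groups overlapped, and without ROI 35 of the Trail.mye group, which enters the same fit, both were called. Il6st had values from 5.25 to 7.00 on the control diet and from 14.8 to 27.3 on DDC, also without overlap, at an adjusted p of 0.303. Cxcl12 had 42.02, 31.5 and 15.8 on the control diet and 29.7, 8.40, 7.88 and 10.5 on DDC, at an adjusted p of 0.503.

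In Trail.mye PanCK+ segments 3 of the 49 genes were called, Ccl2, Cxcl5 and Il1rn, all higher on DDC, where 2.10% of all genes were called and 1.43% were called higher. Cxcl5 read 3.50, 2.63, 2.63 and 8.40 Q3-normalized counts on the control diet and 47.3, 32.9, 25.1, 12.2 and 19.7 on DDC. All DDC segments were above the control segments, of which ROI 29 was highest with 4 counts and ROIs 26, 27 and 28 were at 1 count. The log2 fold change, which is thus mostly against background, was 2.51 ± 0.49 (SE, adjusted p = 3.10e-04). Il1rn was at 1 count in all 4 control segments and read 21.4, 10.5, 16.4, 8.01 and 16.4 on DDC, at least 1.79-fold higher (adjusted p = 0.00420). The value of 8.01 is that of ROI 35, where its 61 counts were under 2 times the negative probe. The call of Il1rn was lost without control ROI 29, with filterByExpr, with DESeq2, with either scaling to the smallest total and with the negative probe subtracted.

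Cx3cl1 and Cxcl1 did not pass in either genotype. Cx3cl1 had 3.50, 2.63, 2.63 and 4.20 on the control diet and 11.7, 7.70, 11.9, 9.85 and 13.9 on DDC in Trail.mye PanCK+ segments, groups that did not overlap, with a log2 fold change of 1.71 ± 0.49 (SE, adjusted p = 0.0599). None of these control values was over 2 times the negative probe, so the fold of Cx3cl1 is against background. Cx3cl1 was called without ROI 33 or without ROI 35. Cxcl1 had 3.50, 2.63, 7.88 and 2.10 on the control diet and 27.9, 16.8, 7.31, 7.22 and 3.78 on DDC in the same genotype, which overlap, with a log2 fold change of 1.53 ± 0.58 (SE, adjusted p = 0.199). ROIs 32 and 33 held the high values. In WT segments Cxcl1 was at 1 to 4 counts throughout.

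**Figure D3:**
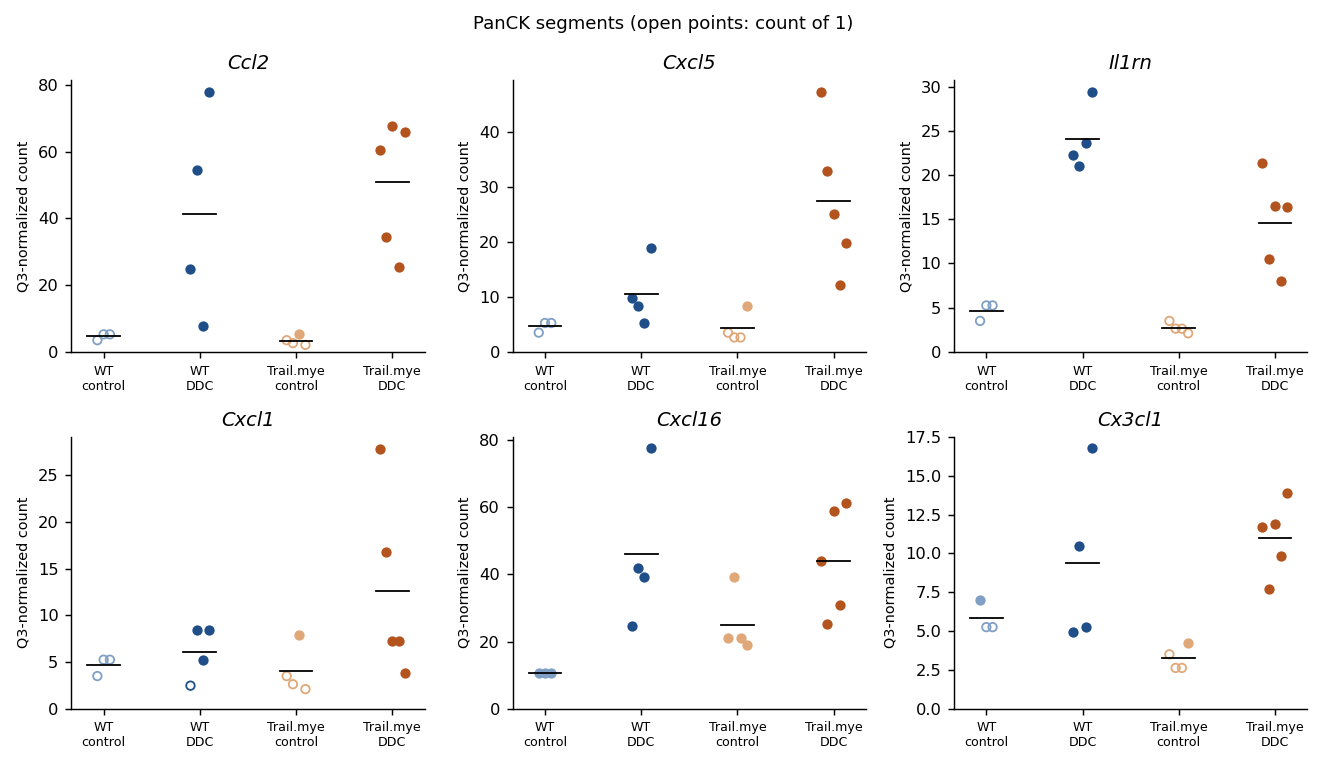
Points are Q3-normalized counts of 6 genes in single PanCK+ segments by genotype and diet, lines are group means, and open points are counts of 1. Ccl2 and Il1rn lie near the floor in every control segment, and Cxcl5 is highest in the Trail.mye DDC segments (12.2 to 47.3).

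Among genes of the same pathways, Cd14 rose on DDC in the PanCK+ segments of both genotypes, by a log2 fold change of 2.42 in WT (adjusted p = 0.0188) and 1.87 in Trail.mye (adjusted p = 0.00200), and in Trail.mye it was joined by Nfkbiz (1.66) and Relb (1.58). These were 1 and 3 of 33 Toll-like receptor and IL-1 signalling genes, with none lower, where 0.493% and 1.43% of all genes were called higher. Of 18 chemokine signalling genes outside the naming rule, Gnai2 was higher in Trail.mye (log2 fold change 1.58) and none was called in WT. No JAK-STAT gene was called in either genotype. Fibroblast markers rose with the diet in these epithelial segments, 3 of 10 in WT (Col1a1, Col3a1 and Rgs5) and 2 of 10 in Trail.mye, and their summed Q3-normalized count went from between 78.8 and 89.3 to between 395 and 562 in WT. In Trail.mye, S100a8, a neutrophil marker, was also called higher, as were C1qb and C1qc of the macrophage list. Of 10 cholangiocyte markers, 2 (Cldn7 and Epcam) were higher in Trail.mye and none was called in WT, where their summed Q3-normalized count nevertheless went from between 658 and 1008 to between 1599 and 2190. Of 8 hepatocyte markers, Fabp1 was lower in WT, and Cyp2e1, Alb and Fabp1 were lower in Trail.mye. Depth rose with the diet as well. The part of these in the chemokine values was not tested, and with totals scaled to the smallest, Ccl2 kept its call in both genotypes, Il1rn lost it in Trail.mye and Cxcl5 kept it there with factors and lost it with no factors.

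No chemokine, interleukin or Toll-like receptor gene separated the genotypes in PanCK+ segments. On DDC 0 of 49 were called (edgeR; 5 at an unadjusted p under 0.05, and 0 by DESeq2 or limma), where 0.152% of all genes were. Percentages of all genes called, here and below, are at the adjusted limit. A count at an unadjusted p cannot be set against them. Cxcl5 had the smallest p, with 9.89, 8.40, 5.25 and 18.9 in WT against 12.2 to 47.3 in Trail.mye, a log2 fold change of 1.30 ± 0.38 (SE, adjusted p = 0.182), and it was called without ROI 35. Il1rn had the opposite sign, from 21.0 to 29.4 in WT against 8.01 to 21.4 in Trail.mye, a log2 fold change of -0.76 ± 0.29 (SE, adjusted p = 0.389). Ccl2 (0.26 ± 0.32), Cxcl1 (0.88 ± 0.48) and Cx3cl1 (0.19 ± 0.34, SE each) had adjusted p-values of 0.865, 0.576 and 0.955, and the sign of the Cx3cl1 value turned with TMM factors and with DESeq2.

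On the control diet 0 of 49 genes were called between genotypes (0 at an unadjusted p under 0.05, and 0 by DESeq2 or limma), against 0.218% of all genes. The test of whether the diet effect differed between genotypes called 0 of 49 as well (1 at an unadjusted p under 0.05, and 0 by DESeq2 or limma), against 0.114% of all genes. That gene was Il6st, with a difference of -2.04 ± 0.76 (SE, log2). Its values in Trail.mye were 7.00, 21.0, 7.88 and 23.1 on the control diet and 8.08, 14.006, 20.6, 10.4 and 15.1 on DDC. For Ccl2 the difference was 0.71 ± 1.26 (SE, log2).

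In the periportal IBA1+ segments of Trail.mye mice 11 of 49 genes were called for the diet, 10 higher and 1 lower on DDC, where 9.38% of all genes were called, 4.20% higher and 5.18% lower. The median log2 fold change of the 49 genes was 0.24 and that of all genes 0.07. Among ligands, Cxcl14, Ccl9, Ccl2, Cx3cl1, Ccl5 and Ccl6 rose and Cxcl10 fell. Among receptors, Cx3cr1, Ccr1, Il10rb and Tlr13 rose.

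Ccl9, a CC chemokine of macrophages, read 3.50, 5.25, 3.28 and 5.25 Q3-normalized counts on the control diet and 15.4, 33.1, 19.7, 11.7 and 11.3 on DDC in Trail.mye. Cxcl14 read 5.25, 5.25, 2.63 and 3.94 on the control diet and 17.3, 15.4, 24.9, 10.7 and 20.3 on DDC. In neither gene did the groups overlap, with log2 fold changes of 1.9998 ± 0.37 (SE, adjusted p = 6.02e-05) for Ccl9 and 2.06 ± 0.37 (SE, adjusted p = 4.49e-05) for Cxcl14. Both control groups lay under 2 times the negative probe in every segment, so these folds are against background. In WT the IBA1+ segments read 5.25 for Ccl9 in both control segments and 10.5, 5.25, 26.3 and 21.0 on DDC, which was not called.

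Ccl6 was measured in every Trail.mye periportal IBA1+ segment. It rose from 10.5, 6.57, 11.8 and 11.8 to 22.2, 23.4, 27.6, 14.1 and 24.8, with no overlap, by 1.05 ± 0.30 (SE, log2, adjusted p = 0.0141). Cx3cr1 went from 7.00, 13.1, 7.22 and 3.94 to 16.1, 18.6, 18.4, 12.1 and 25.5, with ROI 35 below the highest control, by 1.14 ± 0.30 (SE, log2, adjusted p = 0.00792). Its ligand Cx3cl1 went from 5.25, 1.31, 6.57 and 2.63 to 10.5, 8.89, 12.5, 11.3 and 8.25, with no overlap, by 1.25 ± 0.33 (SE, log2, adjusted p = 0.00660). Of its control values only the 6.57 was over 2 times the negative probe, so the fold of Cx3cl1 is mostly against background.

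The remaining calls were those of Ccl2, Ccl5, Il10rb, Ccr1, Tlr13 and Cxcl10. Ccl2, at 3.50, 2.63, 3.28 and 3.94 on the control diet and 10.5, 12.9, 6.57, 6.94 and 6.002 on DDC, rose by 1.29 ± 0.36 (SE, log2, adjusted p = 0.0206), with no overlap. None of its control values was over 2 times the negative probe, so this fold is against background. The DDC value of 6.94, that of ROI 35, was not over that limit either. Ccl5, Il10rb and Ccr1 rose by between 1.08 and 1.21 on the log2 scale, and Tlr13 by 0.87 ± 0.29 (SE, adjusted p = 0.0486). The groups of these 4 genes overlapped. Cxcl10, an interferon-induced attractant of T cells, fell by 1.19 ± 0.36 (SE, log2, adjusted p = 0.0252), a call that rests on 1 control segment: the control values were 1.75, 6.57, 19.7 and 3.94 and the DDC values 6.80, 2.42, 3.94, 4.36 and 3.00, and without control ROI 28, which held the 19.7, it was lost.

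**Figure D4:**
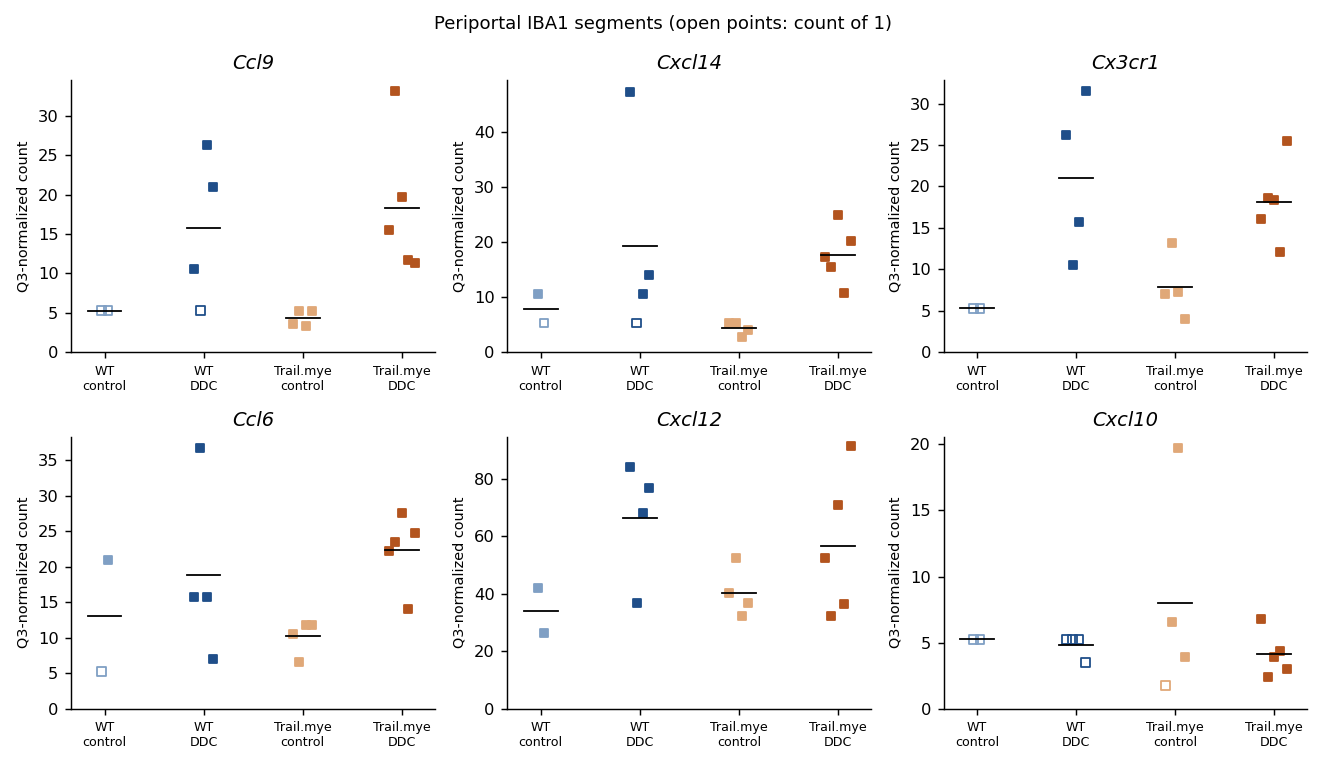
Points are Q3-normalized counts of 6 genes in single periportal IBA1+ segments by genotype and diet, lines are group means, and open points are counts of 1. Ccl9 and Cxcl14 separate the Trail.mye diets without overlap, whereas the high Cxcl10 value of 19.7 is that of a single control ROI.

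These calls depend on the library and the depth. Leaving out 1 segment at a time gave 7 to 12 called genes. Control ROIs 26, 27, 28 and 29 each took 3 to 5 named calls with them, Tlr13 being lost without any of the 4, without ROI 35 Ccr1 and Tlr13 were lost, and of the other DDC segments ROI 33 took Ccl2 and ROIs 34 and 36 took Tlr13. Totals were 80721 to 220381 on the control diet and 158219 to 568719 on DDC, and with the totals scaled to the smallest of the fit none of the 49 genes was called. In the same contrast 8 of 8 hepatocyte markers and 4 of 5 Kupffer cell markers fell, 5 of 10 fibroblast markers rose, and of 5 neutrophil markers S100a8 rose. Of 10 cholangiocyte markers Epcam (1.13) and Spp1 (4.18) rose, with a summed Q3-normalized count going from between 36.8 and 50.8 to between 116 and 230, and 2 of 6 endothelial markers fell. The summed Kupffer cell markers went from between 184 and 286 to between 15.8 and 63.0 Q3-normalized counts. Of 10 macrophage markers, Lyz2 was higher (1.90) and Cd163 lower (-2.12). The part of these shifts in the chemokine changes was not tested.

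In WT periportal IBA1+ segments 0 of 49 genes were called for the diet (edgeR; 1 at an unadjusted p under 0.05, 0 by DESeq2 and 1 by limma), where 1.19% of all genes were. That gene was Cx3cr1, at 1 count in both control segments and at 5, 2, 3 and 9 counts on DDC (26.3, 10.5, 15.8 and 31.5 Q3-normalized counts), at least 1.33-fold higher with an adjusted p of 0.603. Only 2 control segments were available, with 30 and 42 of the 49 genes at 1 count. The difference in diet effect between genotypes was called for 0 of 49 genes (0 at an unadjusted p under 0.05, and 0 by DESeq2 or limma; 0.0569% of all genes), so the larger number of calls in Trail.mye was not shown to be a difference in effect. Between genotypes 0 of 49 were called on DDC (0.0190% of all genes) and 0 on the control diet (0.199% of all genes), with 1 at an unadjusted p under 0.05 in each, Il10rb and Il1rap, and limma called 1, Il10rb, on DDC.

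Of the 18 chemokine signalling genes outside the naming rule, 4 rose on DDC in Trail.mye periportal IBA1+ segments, Fgr (1.47), Pf4 (1.01), Pik3cg (1.58) and Plcb3 (1.498), and none fell. Irf7, a driver of interferon genes, was the only called gene of the 33 in Toll-like receptor and IL-1 signalling and fell by 1.44 on the log2 scale. Lifr, the receptor of leukaemia inhibitory factor, was the only called JAK-STAT gene and fell by 1.03. Single calls in these lists are near the 5.18% of all genes called lower.

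Periportal and parenchymal IBA1+ segments differed in 5 of these genes. Over all IBA1+ segments, with genotype and diet as a term, 4 were higher in periportal segments and 1 lower, where 2.23% of all genes were called, 0.882% higher and 1.35% lower. Ccl19 and Ccl21a, the ligands of CCR7, had periportal ranges of 5.25 to 36.8 and 3.50 to 42.6 Q3-normalized counts and parenchymal ranges of 2.63 to 7.00 each. The parenchymal values never passed 7.00, and the log2 fold changes were 2.02 ± 0.33 (SE, adjusted p = 2.41e-05) and 1.57 ± 0.33 (SE, adjusted p = 0.00166). In the parenchyma Ccl19 was over 2 times the negative probe in 0 segments and at 1 count in 3. Ccl21a was over that limit in 2 and at 1 count in 2. The fold of Ccl19 is thus against background, and that of Ccl21a mostly so. Ccl21a has near-identical gene copies, as do Ccl27a and Ccl27b, so its probe may count more than 1 gene.

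Il18bp went the other way. It read 21.0, 14.006, 31.5, 22.8, 24.3, 35.0 and 31.5 in the 7 parenchymal segments and 5.25 to 20.3 in the 15 periportal ones, a log2 fold change of -1.19 ± 0.23 (SE, adjusted p = 5.22e-04). All parenchymal segments but the one at 14.006 were above every periportal segment. Cx3cr1 was higher at the portal tract by 1.24 ± 0.32 (SE, log2, adjusted p = 0.0177) and Cx3cl1 by 1.36 ± 0.35 (SE, log2, adjusted p = 0.0199). In parenchymal segments on DDC Cx3cr1 was at 1 count in all 4, and the call was lost without ROI 12, 13, 27, 37 or 38. That of Cx3cl1 was lost without ROI 11, 12, 28 or 38. Of the 7 parenchymal segments, 1 was over 2 times the negative probe for Cx3cr1 and 0 for Cx3cl1, which was at 1 count in 5. The fold of Cx3cl1 is thus against background, and that of Cx3cr1 mostly so.

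**Figure D5:**
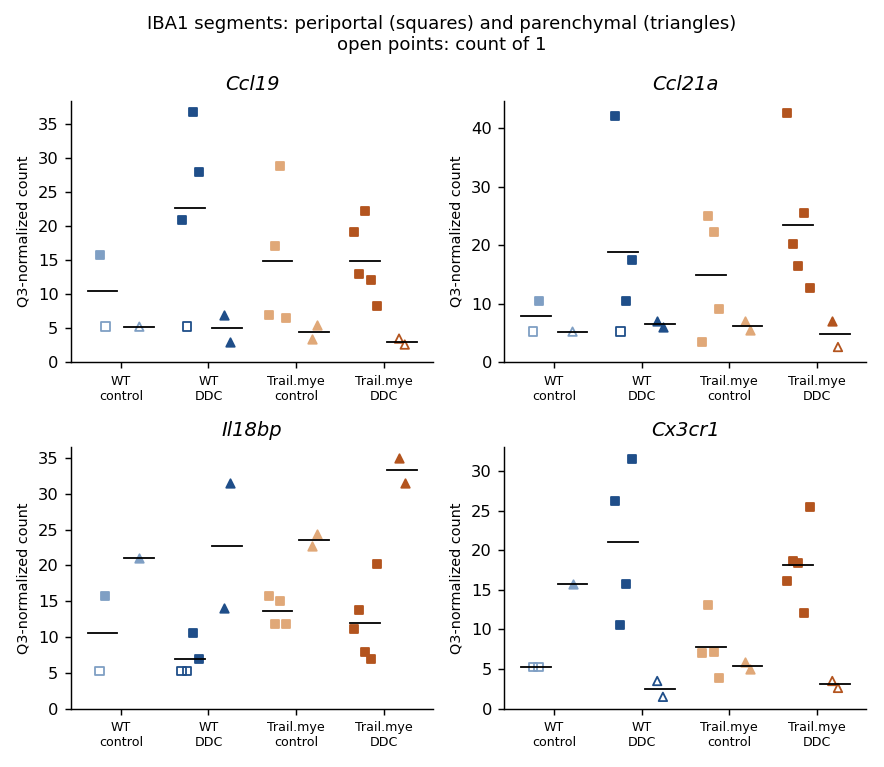
Points are Q3-normalized counts in single IBA1+ segments, periportal (squares) and parenchymal (triangles), by genotype and diet, with lines at group means and open points at a count of 1. Ccl19 and Ccl21a stay at or under 7.00 in the parenchyma, and Il18bp is higher there than at the portal tract.

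The same contrast called 4 of 10 fibroblast markers higher and 4 of 5 Kupffer cell markers and 7 of 8 hepatocyte markers lower at the portal tract, and their part was not tested. The diet within parenchymal IBA1+ segments, with genotype as a term, called 0 of 49 genes (edgeR; 5 at an unadjusted p under 0.05, 1 by DESeq2 and 0 by limma), where 0.759% of all genes were called. Ccl6 had the smallest p, at 10.5, 12.3 and 14.4 on the control diet and 52.5, 57.0, 14.006 and 36.8 on DDC, with a log2 fold change of 1.27 ± 0.41 (SE, adjusted p = 0.235), and it was the gene that DESeq2 called. Ccl9 (1.46), Cxcl14 (1.44), Cx3cr1 (-1.74) and Il1rap (-1.999), the accessory chain of the IL-1 receptor, were the others.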

How the data were processed

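The data are the authors' GeoMx values for 38 segments, as deposited. The deposited count table holds the authors' expected counts per target after sequencing, quality control and a filter on the limit of quantification, with 10547 genes and 1 negative probe. All but 3 genes hold whole values, and these were rounded. The deposited Q3 table holds signal values, which were checked to be the counts times 1 factor per segment. The submitters' processing notes name mm10 and bcl2fastq, and for the counting tool the sources used here give no name. Total counts ran from 20319 to 836971. The SE carries the spread between segments as well as counting error, but no separate spread between animals. The bounds on folds carry no error.

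Groups came from the labels, which name no animal. Each segment class was fitted with edgeR 4.0.16 (R 4.3.3) by quasi-likelihood, with upper-quartile factors at the 75th percentile, a coefficient for each genotype and diet group, all genes and Benjamini-Hochberg adjustment over all of them. PanCK+ was compared with IBA1+ with the ROI as a block, because the 2 segments of an ROI are the same piece of tissue. Their deviations from the group means correlated between -0.01 and 0.62 (median 0.01, 15 ROIs). All tests are two-sided. A fold against a group at 1 count in every segment is a bound that takes 3 counts in each segment as the lowest level. The SE is the log2 fold change over the square root of F.

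The members and lists were chosen with earlier results of these data known. Genes were named if called in any contrast (at most 30), if the study names them (Ccl2, Cxcl1, Cxcl5, Cx3cl1), or if among the 2 most often measured of their role. Il1rap was added after its values were seen. 1 member is not reported here and stays in all counts. Marker lists of T and NK cells (2 of 11 genes in the table), B cells (2 of 6) and endothelial cells (6 of 7) were also counted: between PanCK+ and IBA1+, 0, 2 (lower) and 3 (lower) were called. Alternatives were TMM factors, total counts alone, filterByExpr, DESeq2 1.42.0, limma 3.58.1 on log2(Q3-normalized count + 1), counts scaled to the smallest total, other limits for measured, no replicate block and each segment left out, and, after the data were seen, subtraction of the negative probe and scaling with no factors. The fits were also run on simulated counts with known changes, independent segments and the same spread for all genes. That run does not check the p-values where segments share a mouse. Plots were drawn with matplotlib 3.10.9 in Python 3.11.15.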

Additional observations from a re-analysis of the deposited data

Results flagged for a closer look

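Within groups of 4 or 5 segments, 18 values of named genes stood apart from the rest of their group by Dixon's test at the 95% level, among 169 groups tested. For continuous values about 1 group in 20 would stand apart in this way by chance, or 8.45 here. These counts are not continuous: where the rest of a group ties at 1 count, a segment at 2 counts can pass. The 18 therefore cannot be set against 8.45. All values below are Q3-normalized counts, and nothing was weighed for any of them.

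In WT DDC periportal IBA1+ segments, ROI 13 was highest for Il10ra (21.0, against 5.25 in the others, or 6 counts against 1), Il6ra (14.006, or 4 counts), Il10rb, Il34 and Tlr3 (7.00 each, or 2 counts). In the same group ROI 7 was highest for Ccl27a and ROI 11 for Ccl5 (15.8 each, or 3 counts), and ROI 11 was lowest for Cxcr4 (5.25, or 1 count, against 10.5). In WT DDC PanCK+ segments, ROI 13 was highest for Ackr1 (6.30), ROI 11 for Cxcr4 (7.88) and ROI 7 for Il10ra (7.41), each at 3 counts. ROI 7 was also highest for Cxcl12 (29.7, against 10.5 for the next), at 12 counts.

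In Trail.mye control PanCK+ segments, ROI 26 was highest for Cxcl14 (7.00, or 2 counts), ROI 27 for Cxcl16 (39.4, against 21.0 for the next) and ROI 29 for Cxcl5 (8.40, or 4 counts). Cxcl16 was also highest in ROI 28 of the Trail.mye control IBA1+ segments (22.3, against 11.8 for the next). In Trail.mye DDC segments, ROI 36 was highest for Il10rb in PanCK+ (15.5, against 10.5) and ROI 35 for Cxcl9 in IBA1+ (8.32, against 3.23), the latter with 42 counts beside a negative probe of 27.8.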

How the results depend on the processing

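The number of called genes among the 49 moved with the processing. For the diet in WT PanCK+ segments the main count of 1 became 3 with TMM factors, total counts alone or filterByExpr, 2 with DESeq2 or with counts scaled to the smallest total, with factors or without, 4 with limma and 0 with the negative probe subtracted. For the diet in Trail.mye PanCK+ it was 3, and 1 with filterByExpr or scaling with no factors and 5 with the negative probe subtracted. For periportal IBA1+ the diet in Trail.mye gave 11, and 5 with DESeq2, 6 with limma and 0 with either scaling, and limma gave 1 for the diet in WT and 1 for the genotype on DDC. The parenchymal diet gave 1 with filterByExpr, DESeq2 or the negative probe subtracted. PanCK+ against IBA1+ gave 23, and 12 with filterByExpr, 4 when scaled and 3 with no factors, and 22 with no replicate block. Periportal against parenchymal IBA1+ gave 5, and 1 or 0 when scaled. The filter kept 4 of the 49 genes in PanCK+, 18 in periportal IBA1+, 13 in PanCK+ against IBA1+, 16 between regions and 3 in parenchymal IBA1+. For scaling, subtraction and the choice of tool the cause was not tested. Measured in at least 19 segments were 10 genes, 48 with a count above 1 as the only limit and 3 at over 3 times the negative probe.

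Each segment left out in turn gave 0 to 3 genes for the diet in WT PanCK+, 2 to 5 in Trail.mye PanCK+, 0 to 1 for the genotype on DDC in PanCK+, 7 to 12 for the diet in Trail.mye periportal IBA1+, 22 to 24 for PanCK+ against IBA1+, 3 to 6 between regions and 0 to 0 in the other 7 comparisons. Of called genes, no log2 fold change changed sign under any alternative (241 kept their call and 101 lost it) or with a segment left out (632 and 37). Calls of genes that filterByExpr removed are in neither the 241 nor the 101. The signs that turned were all of genes not called. For the genotype on DDC in PanCK+, Cx3cl1 was -0.064 with TMM factors, -0.080 with DESeq2 and between -0.032 (without WT ROI 7) and 0.64 with a segment left out, and Ccl2 between -0.051 (without WT ROI 11) and 0.77. Cxcl1 was -0.45 for the diet in WT PanCK+ with the negative probe subtracted, and for the genotype on the control diet 0.14 and 0.27 when scaled and between -0.76 and 0.082 (without Trail.mye ROI 29) with a segment left out. Cxcl5 for the genotype on the control diet was -0.21 with limma, -0.58 with the negative probe subtracted, -0.20 without WT ROI 1, and between -0.64 (without Trail.mye ROI 29) and 0.21 with a segment left out. Scaling moves all genes: over the whole table the median for the diet in Trail.mye PanCK+ was 0.18, -0.06 with TMM factors and -0.15 with DESeq2, and for WT PanCK+ -0.17, 0.02 and -0.09.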
